A study of Mus musculus with 15 samples.

Results

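Levels of 10 genes of the Nrf2 pathway and of glutathione metabolism were examined in mouse macrophages exposed to mineral particles. The members are the rows of the deposited gene table named Nfe2l2, Keap1, Sqstm1, Slc7a11, Gclc, Gclm, Gsr, Txnrd1, Prdx1 and Srxn1, 10 of 10653 genes, and each name was on 1 row. MPI cells are non-transformed macrophages derived from the fetal liver of female C57BL6/J mice that renew themselves in medium with serum and the growth factor GM-CSF, and they are used as a model of alveolar macrophages. They were cultured for 24 h with riebeckite asbestos at 9 µg/cm², riebeckite cleavage fragments at 40 µg/cm², tremolite asbestos at 5 µg/cm² or tremolite cleavage fragments at 60 µg/cm², or were left untreated, with 3 libraries of poly(A)-selected RNA per group and 15 in all. Riebeckite and tremolite are amphibole minerals. Their asbestos grows as thin fibres, while cleavage fragments are broken from the same mineral without the fibrous habit. The doses were matched by surface area, so the masses differed, and 1 dose and 1 time were sampled. All groups share the cell line, the medium and GM-CSF. Whether replicate libraries stem from separate cultures is not stated, so the p-values here measure only the spread between these samples and may reflect technical variation.

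Nrf2, encoded by Nfe2l2, is a transcription factor that Keap1 holds in the cytoplasm and delivers to a ubiquitin ligase. Electrophiles and oxidants modify cysteines of Keap1, Nrf2 then escapes degradation, and with a small Maf partner it binds antioxidant response elements near genes for glutathione synthesis, thioredoxin function and heme breakdown. Nrf2 is controlled mostly at the protein level, so its mRNA is no measure of its activity. In macrophages the pathway is known for limiting oxidant damage during phagocytosis and inflammation.

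Promoter sequences are shown for 4 of the genes that rose, because the letters before their starts differ in which of 3 motifs they hold. They are RefSeq sequences on GRCm38.p6, read 5′ to 3′ on the strand of the gene, taken from the 250 bases before an annotated start and printed up to the first base of any deposited transcript of the gene. Capitals mark matches on either strand to 1 of 3 motifs, TGACNNNGC (the core of the antioxidant response element), TGANTCA (the AP-1 type element, which can overlap the first) and TGATGNAA (the core of the element that C/EBP and ATF proteins bind in amino acid response genes). The stretches are chr2:152105274-152105523 (plus strand) for Srxn1, chr3:50443614-50443863 (minus strand) for Slc7a11, chr4:116685349-116685543 (plus strand) for Prdx1 and chr10:82858956-82859178 (plus strand) for an internal start of Txnrd1.
Srxn1: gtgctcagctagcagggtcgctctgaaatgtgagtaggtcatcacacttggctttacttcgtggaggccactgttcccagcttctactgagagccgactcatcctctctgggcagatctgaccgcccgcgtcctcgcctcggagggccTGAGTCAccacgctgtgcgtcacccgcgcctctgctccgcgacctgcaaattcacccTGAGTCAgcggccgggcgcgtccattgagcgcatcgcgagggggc
Slc7a11: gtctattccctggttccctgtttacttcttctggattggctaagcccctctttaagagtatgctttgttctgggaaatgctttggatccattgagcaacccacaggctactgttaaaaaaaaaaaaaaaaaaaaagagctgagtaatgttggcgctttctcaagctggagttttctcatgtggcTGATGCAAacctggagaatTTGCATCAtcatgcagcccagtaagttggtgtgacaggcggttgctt
Prdx1: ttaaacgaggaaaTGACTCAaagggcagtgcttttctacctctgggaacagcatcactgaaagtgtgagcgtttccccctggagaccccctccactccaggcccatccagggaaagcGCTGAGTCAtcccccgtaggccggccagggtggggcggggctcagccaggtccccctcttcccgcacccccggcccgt
Txnrd1: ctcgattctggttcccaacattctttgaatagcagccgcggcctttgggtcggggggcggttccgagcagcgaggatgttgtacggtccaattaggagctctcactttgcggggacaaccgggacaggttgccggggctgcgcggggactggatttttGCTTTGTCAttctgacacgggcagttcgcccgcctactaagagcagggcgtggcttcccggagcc

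Srxn1 held TGANTCA beginning 102 and 45 bases before its start. The match at 45 bases is followed by gc and so reads TGAGTCAGC, with G where TGACNNNGC has C. Only the form with C was searched. Slc7a11 held TGATGNAA at 66 and, on the other strand, at 47 bases. In Prdx1 a TGACNNNGC match on the other strand at 133 bases overlapped a TGANTCA at 131, and a further TGANTCA lay at 237 bases. The internal Txnrd1 start had TGACNNNGC on the other strand 92 bases before it. RefSeq windows were at hand for 8 of the 10 genes, 10 windows in all, of which Txnrd1 had 3. TGACNNNGC was present in 4 of these 10 windows and in 10.2% of 32851 mouse windows of the same length, TGANTCA in 2 and 6.75%, and TGATGNAA in 1 and 3.45%. Gclm (134 bases, other strand) and Nfe2l2 (240 bases) had the remaining TGACNNNGC matches, and the Keap1, Sqstm1 and other 2 Txnrd1 windows had no match to the 3 motifs. A match describes the letters of the window and is no measured site. Gclc and Gsr were not examined in this way.

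Across the 10 genes, riebeckite asbestos left 5 higher and 2 lower than untreated cells, while of all 10616 genes tested 21% were higher and 24.3% lower (limma on log2(FPKM + 1), Benjamini-Hochberg adjusted p under 0.05 over all genes tested). FPKM are fragments per kilobase of transcript, scaled to the mapped fragments of the library, and so are a level per length. Riebeckite fragments left 5 higher and 2 lower (15.3% and 23.1% of all genes). Tremolite asbestos left 3 higher and 1 lower (10.0% and 13.9%), and tremolite fragments 5 higher and 1 lower (12.5% and 15%). The median log2 fold change of the 10 genes was 0.45, 0.40, 0.17 and 0.36 in these 4 comparisons, against -0.017, -0.044, -0.033 and -0.023 over all genes tested. Libraries lay wholly above the untreated ones for 6, 6, 4 and 5 of the 10, against 25.7%, 19.2%, 15.9% and 19.6% of all genes. They lay wholly below for 2, 2, 1 and 1, against 29.6%, 29.9%, 23.9% and 25.5%. Between 2 treatments of 1 mineral or 1 habit, 7.04% to 23.3% of all genes were likewise apart in a given direction. In a test of any difference among the groups 8 of the 10 passed, against 47.7% of all genes, and Keap1 and Gclm did not (limma F test, adjusted p = 0.365 and 0.294). The 4 comparisons share the untreated libraries and are not independent of each other. In RNA from whole cultures, fewer cells with a transcript and less of it per cell cannot be told apart.

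**Figure D1:**
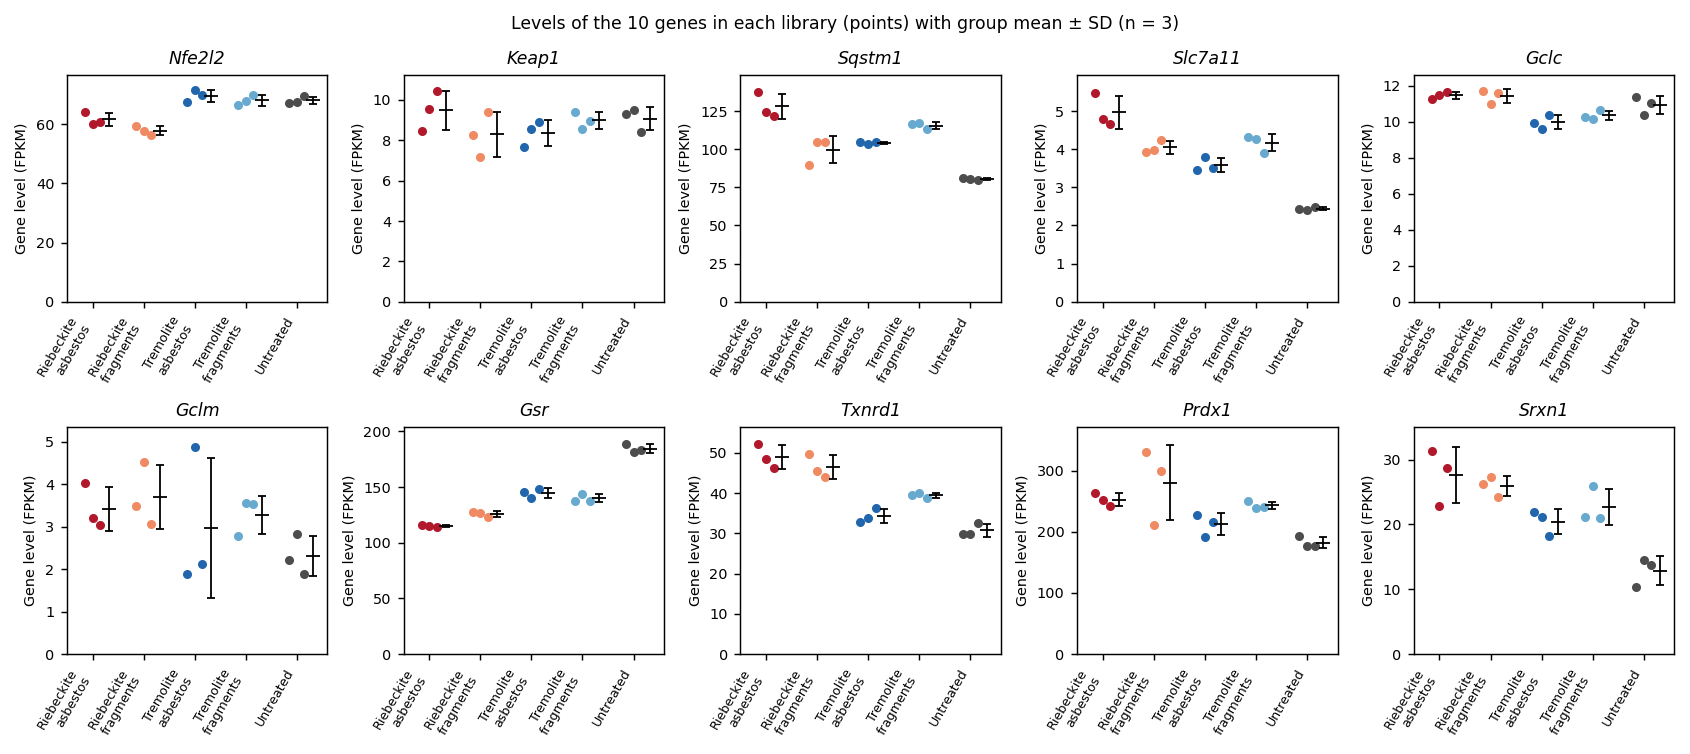
Gene level in FPKM (vertical axes from 0) in each library of the 5 groups for the 10 genes, with the group mean ± SD (n = 3) as a bar to the right of the points. The untreated libraries of Srxn1, Slc7a11, Sqstm1 and, narrowly, Txnrd1 lie below all treated libraries, those of Gsr lie above all treated libraries, and the Gclm and Keap1 groups overlap in part.

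Of the regulators, Nfe2l2 (ENSMUSG00000015839.6, chromosome 2, 75675513 to 75704641, minus strand, GRCm38) was lower after both riebeckite particles and was not called after either tremolite particle. Its level was 64.3, 60.0 and 60.9 FPKM after riebeckite asbestos, 59.5, 57.6 and 56.4 FPKM after riebeckite fragments, 67.4, 71.5 and 70.0 FPKM after tremolite asbestos and 66.5, 67.9 and 70.0 FPKM after tremolite fragments, against 67.3, 67.5 and 69.6 FPKM in untreated cells. All 6 riebeckite libraries lay below all untreated libraries, and the tremolite libraries overlapped with them. The log2 fold changes were -0.14 (SE 0.035, limma adjusted p = 0.00512) for riebeckite asbestos and -0.23 (SE 0.035, limma adjusted p = 0.000154) for riebeckite fragments. For tremolite asbestos and fragments the 95% intervals ran from -0.044 to 0.11 and from -0.075 to 0.075.

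Keap1 (ENSMUSG00000003308.15, chromosome 9, 21229730 to 21239361, minus strand), the adaptor that presents Nrf2 for ubiquitination, was not called in any comparison. Its group means were 9.49 ± 0.969, 8.29 ± 1.11, 8.37 ± 0.643 and 8.98 ± 0.419 FPKM after riebeckite asbestos, riebeckite fragments, tremolite asbestos and tremolite fragments, against 9.08 ± 0.591 FPKM in untreated cells (SD, n = 3 each). The 5 groups overlapped in their order of means from each to its neighbour. The interval for riebeckite asbestos against untreated cells ran from -0.14 to 0.25 on the log2 scale. Exons of Keap1 overlap the antisense gene Gm16754 in GENCODE M21, and without known use of strand their reads cannot be told apart.

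Sqstm1 (ENSMUSG00000015837.15, chromosome 11, 50199366 to 50210827, minus strand) encodes p62, an autophagy receptor that binds Keap1 and is itself an Nrf2 target. It rose with all 4 particles. Its level was 138, 124 and 122 FPKM after riebeckite asbestos, 89.4, 104.7 and 104.9 FPKM after riebeckite fragments, 104.4, 103.6 and 104.8 FPKM after tremolite asbestos and 116.5, 117.0 and 112.9 FPKM after tremolite fragments, against 81.4, 80.1 and 79.95 FPKM in untreated cells. Every treated library was above every untreated one, and riebeckite asbestos stood above all other groups. The log2 fold changes were 0.66, 0.30, 0.37 and 0.51 (SE 0.056 each, limma adjusted p = 7.06e-07, 0.000892, 0.000368 and 1.64e-05). Exons of Sqstm1 overlap those of Mrnip on the opposite strand in the GENCODE M21 annotation. The libraries kept strand by dUTP, and the labels do not state whether the counting used it.

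Of the genes that supply glutathione, Slc7a11 rose with all 4 particles. Slc7a11 (ENSMUSG00000027737.10, chromosome 3, 49892526 to 50443614, minus strand), the xCT subunit of the cystine and glutamate exchanger, had 5.47, 4.80 and 4.65 FPKM after riebeckite asbestos, 3.93, 3.97 and 4.24 FPKM after riebeckite fragments, 3.45, 3.78 and 3.50 FPKM after tremolite asbestos and 4.33, 4.27 and 3.91 FPKM after tremolite fragments, against 2.44, 2.39 and 2.48 FPKM in untreated cells. All 12 treated libraries were above the untreated ones. The ratio of mean FPKM to untreated cells was 2.04, 1.66, 1.47 and 1.71, and the log2 fold changes were on the log2(FPKM + 1) scale, where changes of low genes come out smaller, and were 0.79, 0.55, 0.41 and 0.59 (SE 0.057 each, limma adjusted p = 1.46e-07, 6.26e-06, 0.000176 and 5.94e-06).

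Glutamate-cysteine ligase, the rate-limiting enzyme of glutathione synthesis, has a catalytic subunit from Gclc and a modifier subunit from Gclm, and neither was called against untreated cells. Gclc (ENSMUSG00000032350.9, chromosome 9, 77754535 to 77794485, plus strand) had 11.3, 11.5 and 11.7 FPKM after riebeckite asbestos, 11.7, 11.0 and 11.6 FPKM after riebeckite fragments, 9.92, 9.63 and 10.4 FPKM after tremolite asbestos and 10.3, 10.2 and 10.6 FPKM after tremolite fragments, against 11.4, 10.4 and 11.1 FPKM in untreated cells. Riebeckite libraries were at or above the middle untreated library in all but 1 case, while 2 of the 3 tremolite asbestos libraries lay below all untreated ones. The log2 fold change for tremolite asbestos was -0.12 (SE 0.042, limma adjusted p = 0.0539). It passed the threshold without tremolite asbestos replicate 3 or untreated replicate 2 (limma adjusted p = 0.0407 and 0.0284) and after rescaling to nuclear genes (0.0249).

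Gclm (ENSMUSG00000028124.15, chromosome 3, 122245557 to 122270732, plus strand) was low and, among the 10 genes, had the largest spread within a group, a coefficient of variation of 55.8% in tremolite asbestos. It had 4.01, 3.20 and 3.04 FPKM after riebeckite asbestos, 3.48, 4.53 and 3.07 FPKM after riebeckite fragments, 1.89, 4.87 and 2.13 FPKM after tremolite asbestos and 2.77, 3.56 and 3.52 FPKM after tremolite fragments, against 2.21, 2.82 and 1.89 FPKM in untreated cells. Riebeckite libraries lay above all untreated ones, whereas replicate 2 of tremolite asbestos stood far above replicates 1 and 3. The log2 fold changes were 0.42, 0.50, 0.19 and 0.38 (SE 0.22 each, limma adjusted p = 0.142, 0.0932, 0.583 and 0.240). Without tremolite asbestos replicate 2 those of riebeckite asbestos and fragments passed the threshold (limma adjusted p = 0.0236 and 0.0113), and they passed with only the groups compared in the fit (limma adjusted p = 0.0363 and 0.0361). The tremolite asbestos value turned to -0.13 without that library. Exons of Gclm overlap the pseudogene Gm6061 on the same strand and Gm17494 on the opposite strand in GENCODE M21, so its values are uncertain.

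Of the 2 reductases, Gsr fell and Txnrd1 rose. Gsr (ENSMUSG00000031584.16, chromosome 8, 33652523 to 33698163, plus strand), glutathione reductase, which returns oxidised glutathione to its reduced form, fell with all 4 particles. Its level was 115.5, 115.1 and 113.8 FPKM after riebeckite asbestos, 128, 126 and 123 FPKM after riebeckite fragments, 146, 139.9 and 149 FPKM after tremolite asbestos and 138, 144 and 138 FPKM after tremolite fragments, against 189, 181 and 183 FPKM in untreated cells. No treated library reached the untreated range, and riebeckite asbestos was the lowest group without overlap. The ratio of mean FPKM to untreated cells was 0.623, 0.682, 0.785 and 0.758, with log2 fold changes of -0.68, -0.55, -0.35 and -0.40 (SE 0.030 each, limma adjusted p = 1.20e-09, 1.29e-08, 2.54e-06 and 4.76e-07).

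Txnrd1 (ENSMUSG00000020250.10, chromosome 10, 82833951 to 82897712, plus strand) encodes the cytosolic thioredoxin reductase, a selenoprotein that uses NADPH to reduce thioredoxin. It had 52.1, 48.6 and 46.1 FPKM after riebeckite asbestos, 49.7, 45.5 and 44.1 FPKM after riebeckite fragments, 32.8, 33.9 and 36.3 FPKM after tremolite asbestos and 39.6, 40.0 and 38.8 FPKM after tremolite fragments, against 29.8, 29.9 and 32.7 FPKM in untreated cells. Riebeckite libraries stood above all others, tremolite fragments above tremolite asbestos, and the lowest tremolite asbestos library was just above the highest untreated one. It rose by 0.65 after riebeckite asbestos, 0.58 after riebeckite fragments and 0.35 after tremolite fragments on the log2 scale (SE 0.057 each, limma adjusted p = 8.39e-07, 3.73e-06 and 0.000457). For tremolite asbestos the value was 0.15 (limma adjusted p = 0.0693), and it was called after TMM rescaling (0.0363) and without untreated replicate 3 or riebeckite fragments replicate 1 (0.0405 and 0.0492).

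Prdx1 (ENSMUSG00000028691.12, chromosome 4, 116685544 to 116700822, plus strand), a peroxiredoxin that reduces peroxides with electrons from thioredoxin, had 264, 251 and 243 FPKM after riebeckite asbestos, 331, 211 and 299 FPKM after riebeckite fragments, 228, 192 and 217 FPKM after tremolite asbestos and 249.5, 239 and 241 FPKM after tremolite fragments, against 192, 176.5 and 177 FPKM in untreated cells. Replicate 2 of riebeckite fragments was far below the other 2 of its group but above the untreated libraries, and replicate 2 of tremolite asbestos was level with the highest untreated one. The log2 fold changes were 0.47, 0.60, 0.22 and 0.42 (SE 0.12 each, limma adjusted p = 0.00688, 0.00173, 0.226 and 0.0218), so Prdx1 rose with all particles but tremolite asbestos. Tremolite asbestos was called without riebeckite fragments replicate 2 (limma adjusted p = 0.0233). The tremolite fragments call ended without tremolite fragments replicate 1, untreated replicate 2 or untreated replicate 3 (limma adjusted p = 0.0650, 0.0662 and 0.0642). All 3 calls ended when the gene was taken as the sum of its transcripts (limma adjusted p = 0.222, 0.0911 and 0.289).

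Srxn1 (ENSMUSG00000032802.8, chromosome 2, 152105516 to 152111376, plus strand), sulfiredoxin, which repairs hyperoxidised peroxiredoxins, had the largest log2 fold change of the 10 genes in each comparison with untreated cells. Its level was 31.3, 22.8 and 28.7 FPKM after riebeckite asbestos, 26.2, 27.3 and 24.2 FPKM after riebeckite fragments, 21.9, 21.1 and 18.2 FPKM after tremolite asbestos and 21.1, 25.9 and 20.9 FPKM after tremolite fragments, against 10.3, 14.5 and 13.7 FPKM in untreated cells. All treated libraries lay above the untreated range. The ratio of mean FPKM to untreated cells was 2.15, 2.02, 1.59 and 1.77, with log2 fold changes of 1.05, 0.97, 0.64 and 0.78 (SE 0.13 each, limma adjusted p = 2.77e-05, 7.21e-05, 0.00340 and 0.000655).

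**Figure D2:**
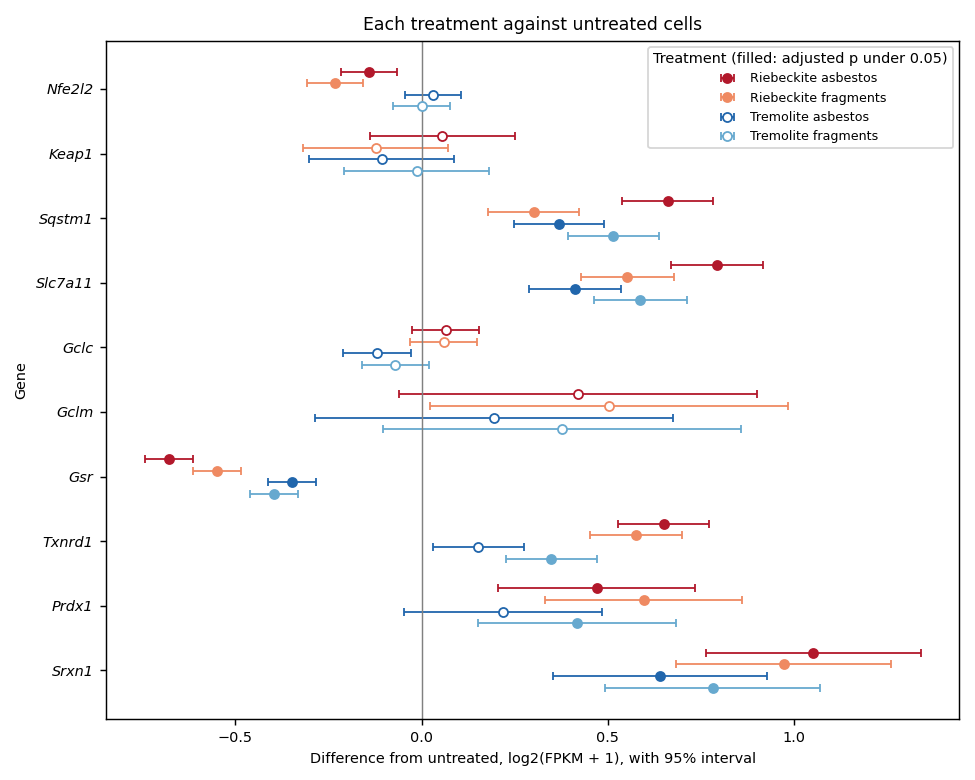
Difference from untreated cells in log2(FPKM + 1) with its 95% interval for each gene (rows) and each treatment (colours); filled points passed an adjusted p of 0.05. Srxn1, Slc7a11 and Sqstm1 lie to the right of 0 with every particle, Gsr lies to the left with every particle, and riebeckite asbestos is the farthest from 0 for Sqstm1, Slc7a11 and Gsr.

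A ratio of 2 genes within a library does not depend on the scaling between libraries. The ratio of Gsr to Txnrd1, both in FPKM, was 2.21, 2.37 and 2.47 in the riebeckite asbestos libraries and 2.57, 2.77 and 2.79 in those of riebeckite fragments. It was 4.44, 4.12 and 4.09 with tremolite asbestos and 3.48, 3.60 and 3.54 with tremolite fragments, against 6.33, 6.05 and 5.61 in untreated cells. The 5 groups did not overlap. The ratio of Gclc to Gclm averaged 3.41 ± 0.538, 3.19 ± 0.690, 4.03 ± 1.79 and 3.20 ± 0.451 with the same treatments and 4.89 ± 1.11 in untreated cells (SD, n = 3 each). Each treated group overlapped the untreated range of this ratio.

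**Figure D3:**
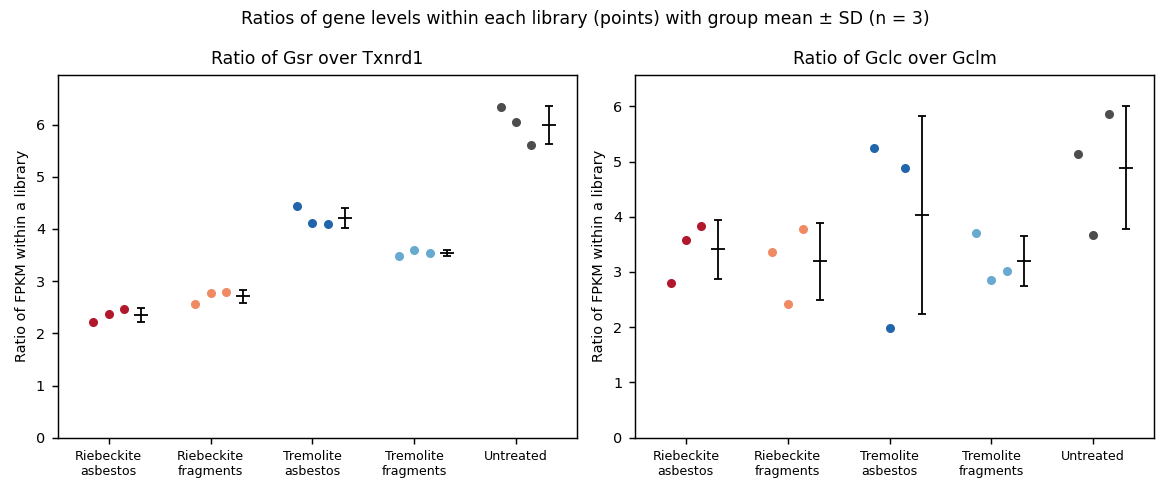
Ratio of Gsr to Txnrd1 and of Gclc to Gclm in FPKM within each library (points) of the 5 groups, with the mean ± SD (n = 3); axes start at 0. The ratio of Gsr to Txnrd1 averages 2.35, 2.71, 4.22 and 3.54 with the 4 treatments and 5.99 in untreated cells, while the ratio of Gclc to Gclm spreads widely within tremolite asbestos.

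Asbestos was compared with fragments of the same mineral to ask whether habit mattered at equal surface area. Mass dose differed along with habit in both minerals, so habit and mass cannot be told apart. For riebeckite, 2 of the 10 genes were higher and 1 lower after asbestos than after fragments (6.71% and 3.85% of all genes). Sqstm1 averaged 128 ± 8.44 FPKM after asbestos and 99.6 ± 8.87 FPKM after fragments, and so differed by 0.36 on the log2 scale (SE 0.056, limma adjusted p = 0.00213). Slc7a11 averaged 4.97 ± 0.436 FPKM after asbestos and 4.05 ± 0.171 FPKM after fragments (0.24, limma adjusted p = 0.0193), and Gsr 115 ± 0.883 and 126 ± 2.39 FPKM (-0.13, limma adjusted p = 0.0154). With only these 2 groups in the fit none of the 3 passed (limma adjusted p = 0.0617, 0.114 and 0.0735). The Slc7a11 call also ended without asbestos replicate 1 or fragments replicate 1 or 2 (0.0728, 0.0590 and 0.0641), and the Gsr call without fragments replicate 1 or 2 (0.0517 and 0.0519) or as a sum of transcripts (0.169). Srxn1 and Txnrd1 were not called, with intervals from -0.21 to 0.37 and from -0.048 to 0.20, and neither was Prdx1, which was called lower after asbestos without fragments replicate 2 (limma adjusted p = 0.0224).

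For tremolite, 0 of the 10 genes were called between asbestos and fragments with limma, where 0.386% of all genes were higher and 0.556% lower. At an unadjusted p under 0.05, 3 of the 10, Sqstm1, Slc7a11 and Txnrd1, were lower after asbestos, against 6.56% of all genes at that unadjusted threshold. This looser threshold was applied only to this comparison, where 0 passed the adjusted one, and its share was taken only for lower values. It is therefore descriptive and no test of a difference. Txnrd1 averaged 34.4 ± 1.79 FPKM after tremolite asbestos and 39.5 ± 0.608 FPKM after tremolite fragments (-0.20, limma adjusted p = 0.162), Slc7a11 3.58 ± 0.179 and 4.17 ± 0.227 FPKM (-0.17, limma adjusted p = 0.238), and Sqstm1 104.3 ± 0.629 and 115 ± 2.23 FPKM (-0.15, limma adjusted p = 0.347).

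The asbestos minus fragments difference, in which habit and mass cannot be told apart, was then set between the minerals. This was done in 1 term, the difference of riebeckite less that of tremolite. It was higher for 2 of the 10 genes and lower for 1 (2.65% and 1.28% of all genes). For Sqstm1 the term was 0.51 (95% interval 0.33 to 0.68, limma adjusted p = 0.00492), from 0.36 in riebeckite and -0.15 in tremolite. For Slc7a11 it was 0.42 (0.24 to 0.59, limma adjusted p = 0.0158), from 0.24 and -0.17, and for Gsr -0.18 (-0.27 to -0.089, limma adjusted p = 0.0329), from -0.13 and 0.050. The Gsr call was lost without any 1 of 9 of the libraries (limma adjusted p between 0.0600 and 0.0855), with no mean-variance trend (0.0753) and as a sum of transcripts (0.178). Those 9 were the 3 of riebeckite asbestos, riebeckite fragments replicates 1 and 2, tremolite asbestos replicates 1 and 3 and tremolite fragments replicates 1 and 3. Txnrd1 had a term of 0.27 (limma adjusted p = 0.0870) that was called without riebeckite fragments replicate 1 (0.0474).

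**Figure D4:**
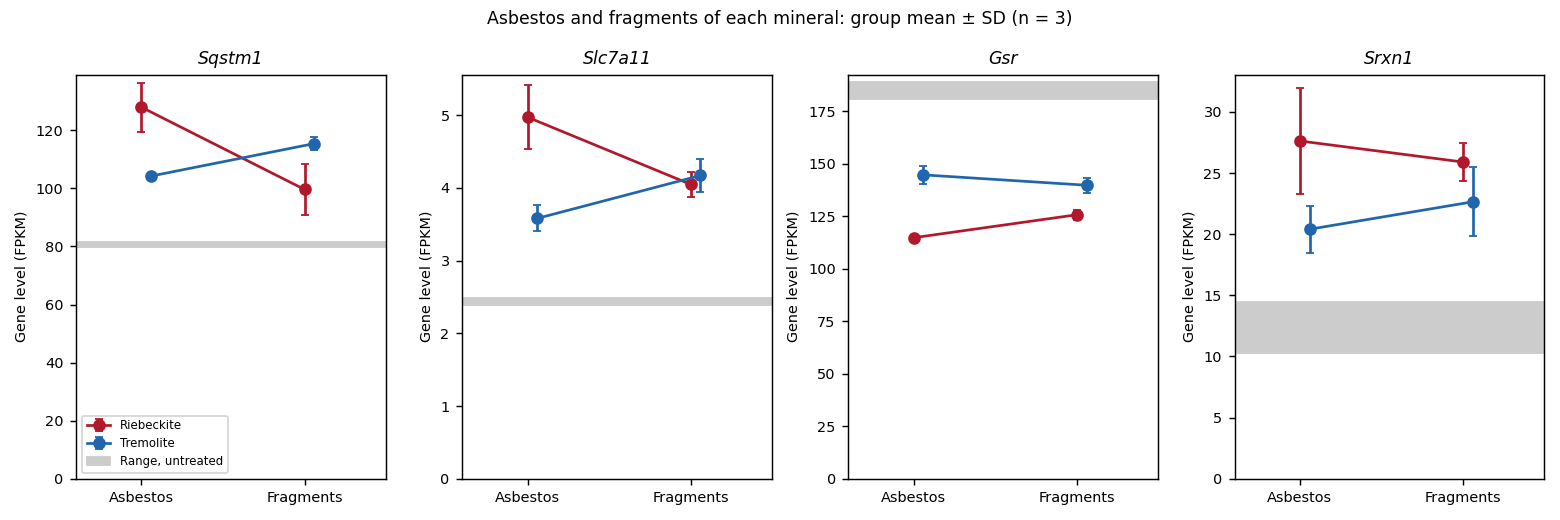
Mean ± SD (n = 3) in FPKM of asbestos (left) and fragments (right) for riebeckite and tremolite, with the range of the untreated libraries as a grey band; axes start at 0. Lines of Sqstm1 and Slc7a11 cross between the minerals, with riebeckite asbestos and tremolite fragments as the higher group of each mineral, while for Srxn1 the SD bars of asbestos and fragments overlap within each mineral.

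Between minerals of 1 habit the mass dose differed too, for riebeckite and tremolite 9 and 5 µg/cm² of asbestos and 40 and 60 µg/cm² of fragments. Mineral and mass therefore cannot be told apart in either habit. Riebeckite asbestos had 5 of the 10 genes higher and 2 lower than tremolite asbestos (15.5% and 11% of all genes). Txnrd1 was higher by 0.50 (SE 0.057, limma adjusted p = 3.90e-05), Srxn1 by 0.41 (limma adjusted p = 0.0367), Slc7a11 by 0.38 (limma adjusted p = 0.000361), Sqstm1 by 0.29 (limma adjusted p = 0.00218) and Gclc by 0.18 (limma adjusted p = 0.00582), while Gsr (-0.33, limma adjusted p = 5.81e-06) and Nfe2l2 (-0.17, limma adjusted p = 0.00296) were lower. The Srxn1 call ended without riebeckite asbestos replicate 1 or 3 or tremolite asbestos replicate 2 or 3 (limma adjusted p between 0.0645 and 0.145). It also ended with nuclear rescaling (0.0536), with only the 2 groups in the fit (0.0588) and as a sum of transcripts (0.0537). Gclm and Prdx1 were not called, and each passed without 1 library, Gclm without tremolite asbestos replicate 2 (0.55, limma adjusted p = 0.0227) and Prdx1 without riebeckite fragments replicate 2 (0.25, limma adjusted p = 0.0107).

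Riebeckite fragments had 1 of the 10 genes higher and 3 lower than tremolite fragments (5.31% and 6.01% of all genes). Txnrd1 was higher by 0.23 (limma adjusted p = 0.0222), and Nfe2l2 (-0.23, limma adjusted p = 0.000916), Sqstm1 (-0.21, limma adjusted p = 0.0281) and Gsr (-0.15, limma adjusted p = 0.00558) were lower. The calls of Txnrd1 and Sqstm1 each ended without riebeckite fragments replicate 1 or without any 1 of the 3 tremolite fragments libraries (limma adjusted p between 0.0534 and 0.0916 for Txnrd1 and between 0.0565 and 0.0846 for Sqstm1), and that of Sqstm1 also with only these 2 groups in the fit (0.108). Gclc, at 11.4 ± 0.378 FPKM after riebeckite fragments and 10.4 ± 0.250 FPKM after tremolite fragments, was not called (0.13, limma adjusted p = 0.0663) and passed after TMM rescaling (0.0457). Prdx1 was called only without riebeckite fragments replicate 2 among the libraries left out (0.37, limma adjusted p = 0.00698).

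The deposited transcripts, 22 for the 10 genes of 22795 in all, show which models carry these levels. Their FPKM are not on the scale of the gene values. The only deposited transcript of Nfe2l2 averaged 102.9 FPKM in untreated cells, where the gene averaged 68.1 FPKM. Of 9192 genes checked, 19.3% had a value within 5% of the plain sum of their transcripts. Of the 22, riebeckite asbestos left 6 higher and 2 lower than untreated cells (6.78% and 6.24% of transcripts tested), riebeckite fragments 7 and 2 (4.91% and 5.44%), tremolite asbestos 3 and 1 (2.60% and 2.42%) and tremolite fragments 6 and 1 (3.26% and 3.03%). Between riebeckite asbestos and fragments 1 was higher, Sqstm1-202 (0.39, limma adjusted p = 0.0359), and 0 lower (0.740% and 0.540% of transcripts). Between tremolite asbestos and fragments 0 were called with limma (0.0499% and 0.0726%). There 3 were lower at an unadjusted p under 0.05, against 3.20% of transcripts at that unadjusted threshold. The looser threshold was again applied only to this comparison and is descriptive. Riebeckite asbestos had 4 higher and 2 lower than tremolite asbestos (3.14% and 2.11%), and riebeckite fragments 0 higher and 1 lower than tremolite fragments (0.930% and 0.631%). Slc7a11, Gclc, Gsr, Nfe2l2 and Srxn1 had 1 deposited transcript each. Most of Txnrd1 was carried by Txnrd1-206 (chromosome 10, start 82860301) and Txnrd1-208 (start 82859207). Txnrd1-201 (start 82859179) and Txnrd1-208 both begin just past the stretch printed above with its TGACNNNGC match. Txnrd1-206 begins just past another stretch, chr10:82860091-82860300, whose window had no match to the motifs searched. Txnrd1-201 averaged 1.27 ± 0.0889, 1.15 ± 0.107, 0.823 ± 0.0937 and 0.865 ± 0.125 FPKM with the 4 treatments and 0.868 ± 0.183 FPKM in untreated cells (SD, n = 3 each), and it was not called with any of them (limma adjusted p = 0.115, 0.310, 0.951 and 1).

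Txnrd1-208 was 14.0, 12.9 and 13.7 FPKM after riebeckite asbestos, 11.8, 10.6 and 9.83 FPKM after riebeckite fragments, 5.63, 7.22 and 6.22 FPKM after tremolite asbestos and 8.09, 9.28 and 7.34 FPKM after tremolite fragments, against 5.59, 5.91 and 6.13 FPKM in untreated cells. Its log2 fold changes were 1.08 (limma adjusted p = 1.24e-05), 0.77 (0.000264) and 0.42 (0.0253) for riebeckite asbestos, riebeckite fragments and tremolite fragments, where those of Txnrd1-206 were 0.62 (limma adjusted p = 1.92e-05), 0.57 (5.43e-05) and 0.35 (0.00386). The share of Txnrd1-208 in the summed transcripts of the gene was 12.9 to 14.3% after riebeckite asbestos and 11.0 to 11.7% after riebeckite fragments, against 9.25 to 9.82% in untreated cells, without overlap, while both tremolite groups overlapped with untreated cells. The difference between the 2 transcripts was not tested. Assignment of short reads to transcripts that share most exons is uncertain.

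The transcripts of Prdx1 varied more. Prdx1-205 was listed at 3.89, 3.01 and 45.5 FPKM after riebeckite asbestos, 64.7, 8.68 and 0 FPKM after riebeckite fragments, 0, 5.56 and 2.57 FPKM after tremolite asbestos and 100.5, 6.39 and 4.56 FPKM after tremolite fragments, against 143, 1.63 and 38.4 FPKM in untreated cells. The main model Prdx1-204 averaged 327 ± 19.0, 361 ± 77.6, 277 ± 25.2 and 308 ± 7.05 FPKM with the 4 treatments and 222 ± 7.88 FPKM in untreated cells. It rose with riebeckite asbestos, riebeckite fragments and tremolite fragments (limma adjusted p = 0.0119, 0.00425 and 0.0494).

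**Figure D5:**
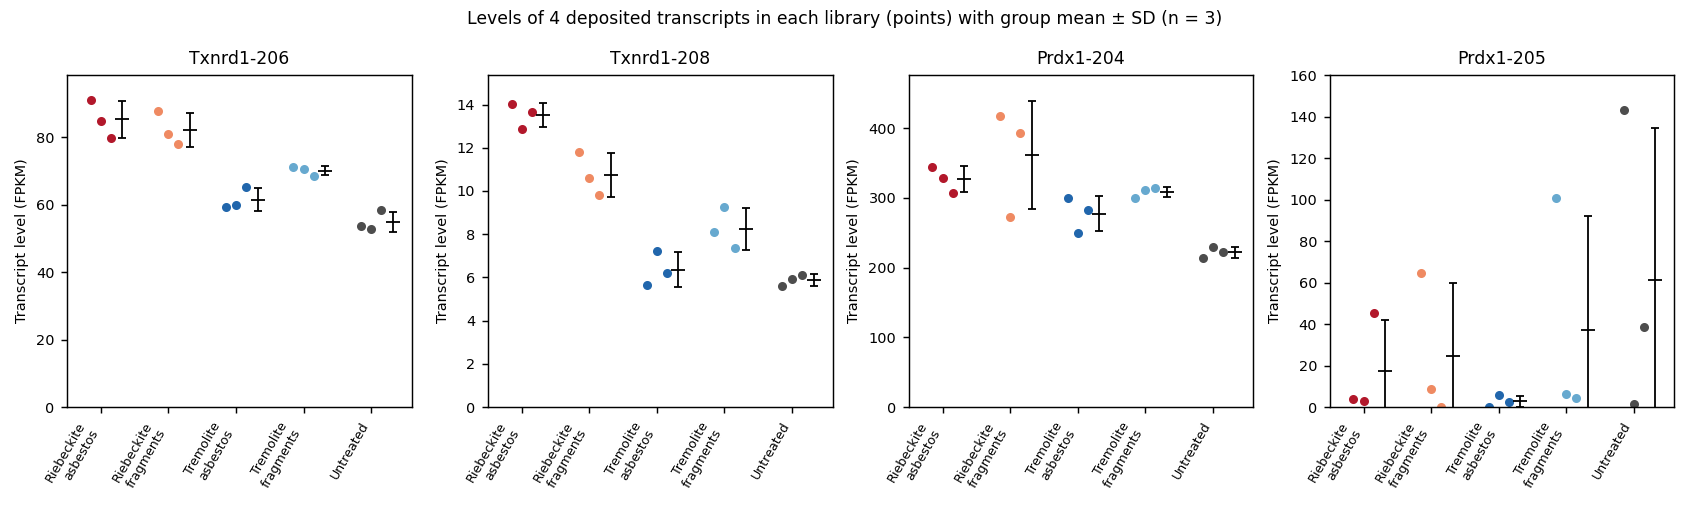
Level in FPKM of Txnrd1-206, Txnrd1-208, Prdx1-204 and Prdx1-205 in each library (points), with the mean ± SD (n = 3); axes start at 0, which cuts off the lower SD bar of Prdx1-205. The riebeckite libraries of both Txnrd1 transcripts lie above all untreated libraries, and Prdx1-205 ranges from 1.63 to 143 FPKM among untreated libraries.

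Other genes of the pathway were counted from lists, and the shares of all genes called are those given above for each comparison. Of 21 further Nrf2 target genes tested, riebeckite asbestos raised 13 and lowered 3, riebeckite fragments raised 16 and lowered 1, tremolite asbestos raised 10 and lowered 4 and tremolite fragments raised 8 and lowered 3. Their median log2 fold changes were 0.27, 0.29, 0.088 and 0.099. Hmox1, heme oxygenase 1, averaged 203 ± 8.81, 182 ± 7.42, 132 ± 7.44 and 176 ± 6.95 FPKM, against 84.9 ± 3.35 FPKM in untreated cells. Pgd and Cat, which encode an NADPH-forming enzyme of the pentose phosphate pathway and catalase, rose with every particle, by 0.48 and 0.29 after riebeckite asbestos. Slc48a1, a heme transporter, rose with riebeckite asbestos and fragments (0.45 and 0.46) and had values of -0.013 and 0.083 with tremolite asbestos and fragments (limma adjusted p = 0.831 and 0.107). Between asbestos types 12 of the 21 were higher after riebeckite and 0 lower, and between fragments 9 were higher after riebeckite and 0 lower.

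Of 20 other glutathione genes, 8 rose and 4 fell with riebeckite asbestos, 5 and 3 with riebeckite fragments, 1 and 2 with tremolite asbestos and 2 and 2 with tremolite fragments. Mgst2, a microsomal glutathione transferase, rose to 6.84 ± 0.771, 8.04 ± 0.560, 4.74 ± 0.611 and 5.30 ± 0.455 FPKM, against 3.29 ± 0.282 FPKM in untreated cells. Ggct, which degrades gamma-glutamyl products of glutathione, fell to 2.85 ± 0.279, 3.12 ± 0.229, 3.15 ± 0.0827 and 3.18 ± 0.332 FPKM, against 4.70 ± 0.312 FPKM in untreated cells. Slc3a2, the partner chain of Slc7a11 in the exchanger, rose with all particles but tremolite asbestos (0.47, 0.27 and 0.31, and 0.21 with limma adjusted p = 0.0802 for tremolite asbestos). Cndp2, a dipeptidase, rose by 0.22 after riebeckite asbestos and was not called with the other 3 particles.

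Of 16 other thioredoxin and peroxiredoxin genes, 6 rose and 2 fell with riebeckite asbestos, 4 and 2 with riebeckite fragments, 2 and 2 with tremolite asbestos and 2 and 1 with tremolite fragments. Txnip, which binds and inhibits thioredoxin, fell to 59.9 ± 2.13 FPKM after riebeckite asbestos, against 105.9 ± 8.25 FPKM in untreated cells (-0.81, limma adjusted p = 1.47e-07), and its values for riebeckite fragments, tremolite asbestos and tremolite fragments were -0.31, -0.23 and -0.16, of which the last was not called (limma adjusted p = 0.0622). Msrb1, a methionine sulfoxide reductase, and Prdx5 rose with every particle, by 0.40 and 0.45 after riebeckite asbestos. Prdx4 fell only after tremolite fragments among the comparisons with untreated cells (-0.31).

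Among 17 partners and regulators of Nrf2, 6 rose and 1 fell with riebeckite asbestos, 5 and 1 with riebeckite fragments, 5 and 1 with tremolite asbestos and 5 and 0 with tremolite fragments, although the list medians were -0.025, -0.024, -0.0027 and 0.028. The small Maf genes, whose products pair with Nrf2, were among those that rose with every particle. Maff had 23.2, 22.5 and 22.1 FPKM after riebeckite asbestos, 15.8, 14.6 and 15.4 FPKM after riebeckite fragments, 13.9, 13.9 and 12.7 FPKM after tremolite asbestos and 14.5, 15.8 and 11.7 FPKM after tremolite fragments, against 5.63, 5.94 and 5.48 FPKM in untreated cells. Its log2 fold changes were 1.82, 1.28, 1.12 and 1.16, where those of Mafg were 0.50, 0.37, 0.26 and 0.27 and those of Mafk 0.47, 0.32, 0.18 and 0.18. Tbk1, a kinase that phosphorylates p62, rose by 0.52, 0.38, 0.48 and 0.47.

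Of 9 superoxide dismutase and NADPH oxidase genes, 5, 6, 4 and 6 rose with riebeckite asbestos, riebeckite fragments, tremolite asbestos and tremolite fragments and 2 fell in each case. The list medians were 0.24, 0.21, 0.049 and 0.12. Cybb, the catalytic subunit of the phagocyte oxidase, rose by 0.43, 0.35, 0.56 and 0.53, the mitochondrial dismutase Sod2 by 0.73, 0.32, 0.49 and 0.43 and the oxidase subunit Ncf4 by 0.64, 0.37, 0.38 and 0.34, while Rac1, a GTPase of the oxidase, fell by 0.25, 0.11, 0.12 and 0.089 on the log2 scale. Slc7a11 is also a target of ATF4, the factor of the amino acid response, and of 14 ATF4 target genes 6, 2, 3 and 6 rose while 0, 4, 1 and 0 fell. The medians of these 14 were 0.065, -0.13, 0.11 and 0.13. Gdf15, a stress cytokine, rose with every particle (1.08, 0.72, 0.56 and 0.96). Asns, asparagine synthetase, rose with tremolite asbestos and fragments (0.33 and 0.48), fell with riebeckite fragments (-0.31) and was not called with riebeckite asbestos (-0.12, limma adjusted p = 0.219). Atf3 rose with all particles but riebeckite fragments (0.31, 0.55 and 0.29), and Shmt2 fell after riebeckite fragments and tremolite asbestos (-0.37 and -0.18).

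In a search of 9863 genes, predicted and clone symbols (Gm numbers and Rik) were counted but not named. These symbols aside, the genes whose levels ran most like Slc7a11 over the 15 libraries were Itga5, Tbc1d9, Ppp1r12b, Cebpa and Tgm2 (Pearson r of log2(FPKM + 1) from 0.984 to 0.977). For Srxn1 they were Gna15, Ercc6, Nav3, Aqp9 and Slamf9 (0.953 to 0.945). The libraries share their groups, so these values follow the group means to a large part and describe likeness only.

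Some facts of the libraries bear on these levels. Summed FPKM lay between 257329 and 273570, and the read depth is unknown. Libraries of 1 group had a Spearman's rho over genes of 0.988 to 0.992, and libraries of different groups 0.964 to 0.990. All 8 macrophage markers looked for and all 7 of alveolar macrophages had values, with Lyz2 and Marco at 4066 and 1046 FPKM in untreated cells. The summed level of the 7 alveolar markers was 2223 to 2372, 2555 to 2758, 2441 to 2627 and 2509 to 2616 FPKM with riebeckite asbestos, riebeckite fragments, tremolite asbestos and tremolite fragments, against 2329 to 2374 FPKM in untreated cells, and that of the 8 macrophage markers 5819 to 6075, 6105 to 6593, 5012 to 5725 and 4913 to 5275 FPKM, against 4896 to 5370 FPKM. Single markers differed more. Siglecf averaged 49.6 ± 0.717, 55.4 ± 2.97, 27.4 ± 2.46 and 38.4 ± 0.858 FPKM, against 10.7 ± 1.05 FPKM in untreated cells. Fabp4 averaged 33.4 ± 1.30, 40.3 ± 2.83, 60.7 ± 4.62 and 48.3 ± 3.25 FPKM, against 95.7 ± 1.81 FPKM, and Fcgr1 11.4 ± 1.75, 12.2 ± 1.73, 19.7 ± 1.96 and 15.5 ± 0.499 FPKM, against 25.7 ± 1.13 FPKM (SD, n = 3 each). Of 9 neutrophil markers Cxcr2 and S100a8 had values, and their summed level was 68.3 to 71.4 FPKM after riebeckite asbestos, 68.8 to 72.1 after riebeckite fragments, 37.0 to 46.1 after tremolite asbestos and 36.3 to 39.8 after tremolite fragments, against 28.2 to 33.8 in untreated cells. The other 7, with Ly6g, Mpo and Elane among them, were not analysed here, and neither were the markers of mast cells, lymphocytes, erythroid cells, hepatocytes, fibroblasts, epithelium and endothelium. Of 5 dendritic cell markers Clec9a had values, at 11.1 to 12.1, 13.6 to 15.9, 11.8 to 13.5 and 13.5 to 15.1 FPKM with the 4 treatments and 8.28 to 9.85 FPKM in untreated cells. The part of these markers in the results was not tested. Mitochondrial genes made up 6.08 to 6.90%, 7.45 to 8.17%, 7.99 to 8.33% and 8.10 to 8.62% of summed FPKM with riebeckite asbestos, riebeckite fragments, tremolite asbestos and tremolite fragments, against 8.54 to 8.86% in untreated cells. After rescaling to the nuclear genes, all calls of the 10 genes against untreated cells were kept.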

How the data were processed

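The authors deposited FPKM values for genes and transcripts of 15 libraries, 3 per group. Per the labels' protocols, RNA was selected with oligo(dT) and the second strand marked with dUTP. Per the submitters' processing notes, cutadapt, HISAT2, StringTie and the GRCm38 build were used, with no versions given. Columns were matched to samples by name. All genes with at least 0.5 FPKM in at least 3 libraries (10616) were tested with limma 3.58.1 in R 4.3.3 on log2(FPKM + 1), all 15 libraries by group, with a mean-variance trend and Benjamini-Hochberg adjustment within each comparison at 0.05. Transcripts (22038) were tested likewise. The depth is unknown, so no counting error is given. The fit was checked on simulated data. Genes from other lists, markers aside, were named by the smallest limma p in any comparison with untreated cells, whatever the size of the change. Members and lists were chosen with earlier results of these data known. Alternatives were TMM, quantile and nuclear-gene rescaling, other pseudocounts and filters, no trend, only the groups compared, summed transcripts, a replicate block and each library left out. The genes whose levels ran most like Gclm are not reported here.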

Additional observations from a re-analysis of the deposited data

Results flagged for a closer look

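In 3 of the 10 genes, 2 higher and 1 lower (2.65% and 1.28% of all genes), the asbestos minus fragments difference was not the same in the 2 minerals. The term tested was that difference of riebeckite less that of tremolite on the log2(FPKM + 1) scale. For Sqstm1 the term was 0.51 (SE 0.080, limma adjusted p = 0.00492), for Slc7a11 0.42 (SE 0.081, limma adjusted p = 0.0158) and for Gsr -0.18 (SE 0.042, limma adjusted p = 0.0329). Mass dose differed along with habit in both minerals, so habit and mass cannot be told apart in this term. Between tremolite asbestos and fragments alone, Sqstm1, Slc7a11 and Gsr were not called (limma adjusted p = 0.347, 0.238 and 0.610). The Gsr result was lost without any 1 of 9 of the libraries (limma adjusted p between 0.0600 and 0.0855), with no mean-variance trend (0.0753) and as a sum of transcripts (0.178).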

How the results depend on the processing

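Counts of called genes among the 10 moved by over 1.5 times in these cases. Apart from genes that a filter removed, the cause was not tested. A filter at a mean of at least 5 FPKM left Slc7a11 and Gclm untested, as their highest group means were 4.97 and 3.69 FPKM. With Slc7a11 removed, 1 gene was higher in the difference of habit between minerals (2 in the main analysis). Between riebeckite asbestos and fragments 1 was likewise higher (2). Under the same filter 2 were lower after tremolite asbestos than untreated (1). With only the groups compared, which leaves fewer samples, 0 were higher (2) and 0 lower (1) between riebeckite asbestos and fragments. TMM gave 2 higher between riebeckite and tremolite fragments (1). With no mean-variance trend 0 were lower in the difference of habit (1), with summed transcripts 0 were lower there (1) and 0 between riebeckite asbestos and fragments (1), and nuclear rescaling gave 2 lower after tremolite asbestos (1). Of 24 correlations between same-numbered libraries 3 were over 0.1 (2 of them between riebeckite asbestos and fragments, at 0.172 and 0.101, the 1 comparison where every library correlated best with its own number), and no comparison had all its pairs over 0.1, so the numbers were not taken to pair the libraries. The replicate block gave 2 higher between riebeckite and tremolite fragments (1) and 2 lower after tremolite asbestos (1), and ended the Srxn1 call between the asbestos types (limma adjusted p = 0.0520). Leaving out 1 library gave 1 to 2 higher and 0 to 1 lower between riebeckite asbestos and fragments, 0 to 2 higher between the fragments, 0 to 1 lower in the difference of habit and 1 to 2 lower after tremolite asbestos. The sign turned, always without a call in the main analysis, for Gclc between riebeckite asbestos and fragments (-0.020 with TMM, -0.033 with quantile rescaling), Keap1 (0.0089 and 0.012) and Nfe2l2 (0.024 and 0.010) after tremolite fragments, and Slc7a11 between the fragments (0.0019 with quantile rescaling). With a library left out it turned for Gclc (-0.020 to 0.022), Gclm (-0.18 to 0.043), Prdx1 (-0.32 to 0.0059) and Srxn1 (-0.014 to 0.21) between riebeckite asbestos and fragments, Gclm between tremolite asbestos and fragments (-0.50 to 0.0059), Gclm after tremolite asbestos (-0.13 to 0.38), Keap1 after riebeckite asbestos (-0.0086 to 0.13), Keap1 (-0.062 to 0.018) and Nfe2l2 (-0.020 to 0.017) after tremolite fragments, and Gclm (-0.087 to 0.42) and Prdx1 (-0.12 to 0.20) in the difference of habit. The rescalings moved the median of all genes by -0.0487 to 0.0416. The difference of habit was not run with only the groups compared.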
